A study of Rattus norvegicus with 9 samples.

Results

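The comparison set fetal rat ventricle against adult left ventricle under pressure overload, 6 of the 9 RNA-seq libraries of the series, and asked which features of the fetal heart are absent from the overloaded adult heart. Members were chosen by their labels: 3 libraries titled as litters 1 to 3, from Sprague-Dawley ventricle at embryonic day 18, and 3 libraries of adult Sprague-Dawley left ventricle after transverse aortic constriction (TAC), a surgical narrowing of the aorta that makes the left ventricle pump against a raised pressure. The other 3 libraries, from adult left ventricle of sham-operated rats, are given beside them. No group carries a transgene or a drug. Isolation differed too (Trizol for the litters, the Qiagen RNeasy Fibrous Tissue kit for adults), and the fetal samples are labelled ventricle where the adult ones are labelled left ventricle, so stage, region and isolation cannot be told apart. The age of the adults, the time after surgery, whether each adult library is a separate animal and whether a litter was pooled are not given in the sources used here, so p-values measure the spread between these libraries, which may be technical.

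The fetal heart grows by division of its muscle cells, draws much of its energy from glucose and lactate, and builds its sarcomeres from fetal isoforms such as the slow skeletal troponin I. Around and after birth the muscle cells largely leave the cell cycle, mitochondria and fatty acid oxidation expand, and adult isoforms take over. In overloaded adult hearts some fetal genes, classically those of the natriuretic peptides and skeletal alpha-actin, are known to return, and this set is often called the fetal gene programme.

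Implied fragments, estimated from the authors' confidence bounds, in units of 1000000, ran from 6.37 to 11.65 in TAC libraries, from 17.55 to 25.75 in fetal libraries and from 11.89 to 21.58 in sham libraries, so low values are least precise in TAC. The first principal component (56.5% of the variance) separated fetal from adult libraries. The second (17%) set the libraries numbered 1 apart from the others, and those 3 libraries list assembled features down to 43 nt where the others stop at 63 nt. No label used here names a batch, and why these libraries stand apart was not tested. Fetal replicate 2 stood apart in a few single loci, which are named with their results. Cardiac identity could be checked through only 2 measured muscle markers, Actc1 and Mb, both abundant in all 9 libraries.

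Values are rescaled FPKM (fragments per kilobase of transcript per 1000000 fragments, brought to a common scale), and differences are fetal minus TAC in log2(value + 1), a scale on which changes of weakly expressed genes come out too small. Of 14194 loci tested with limma, 6454 (45.5%) differed at a Benjamini-Hochberg adjusted p below 0.05. Higher in fetal ventricle were 3221 loci (22.7%) and lower were 3233 (22.8%). The difference exceeded 2-fold for 2024 of the higher and 2147 of the lower loci, and 16-fold for 95 and 113. The median over all tested loci was 0.04. Scaling to equal library totals moved that median to 0.24 and the split to 3657 higher and 2299 lower, so small differences depend on the scale. Within replicates 2 and 3 alone, 2252 loci were higher and 2731 lower. Replicate 1 holds 1 library per group and gives no test by itself. With the assembled transcripts left out, 2109 loci were called, 732 higher and 1377 lower. TAC and sham libraries, fitted in the same model, differed at 3 loci (0.0211%), with 614 loci at an unadjusted p below 0.05.

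**Figure D1:**
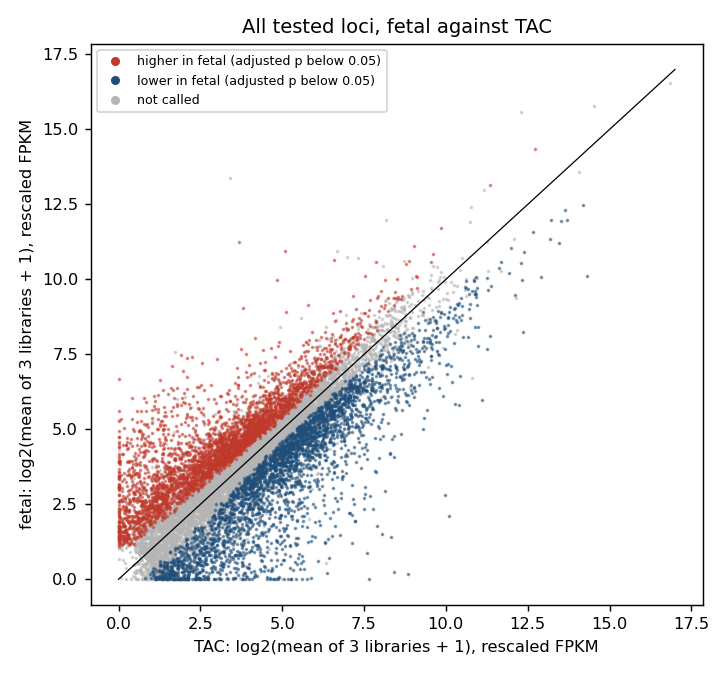
Mean of the 3 fetal libraries against mean of the 3 TAC libraries for each of the 14194 tested loci, both as log2(mean + 1) of rescaled FPKM, with the line of equality. Red loci (3221) were higher and blue loci (3233) lower in fetal ventricle at an adjusted p below 0.05, and grey loci were not called.

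The largest called difference in favour of the fetal ventricle was in Tnni1, the slow skeletal troponin I that fetal cardiac sarcomeres use (rn4 chromosome 13, 48830425 to 48841258). Its values were 2014.8, 2587.2 and 2769.8 in the litters, 31, 2.26 and 1.71 in TAC, and 18.6, 2.96 and 2.13 in sham. The lowest litter was far above the highest TAC library, and TAC and sham values overlapped. The difference was 8.54 (SE 0.98, adjusted p = 0.000221). TAC replicate 1 and sham replicate 1, both of the set numbered 1, held the highest adult values.

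Other loci at the top were Bmp7, Bex1, Bex4, Slc16a3, Hbe1 and the mitotic genes Prc1, Ccna2 and Depdc1. Bmp7, a secreted bone morphogenetic protein, read 67.4, 66.7 and 59.4 in the litters against 0, 0.361 and 0.637 in TAC (difference 5.65, SE 0.24, adjusted p = 1.95e-06). Sham values of Bmp7, between 0.316 and 0.838, were as low as those of TAC. Bex1 read 426.6, 613.9 and 556.1 in fetal and 17.3, 10.1 and 11.4 in TAC (difference 5.28, adjusted p = 3.28e-06). Neither gene's groups overlapped, which held for 7932 of all tested loci (55.9%). Bmp7 and Depdc1, below 1 in every adult library, passed the filter of at least 1 in 3 libraries only through the litters. Their direction was fixed by that filter.

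At the other end stood genes of the mature ventricle. Rpl3l, a ribosomal protein of striated muscle (rn4 chromosome 10, 13989684 to 13992490), read 0.122, 0.165 and 0.126 in the litters and 386.6, 550.9 and 434.2 in TAC (difference -8.64, SE 0.19, adjusted p = 1.29e-07). Myom2, a protein of the sarcomeric M-band, read 2.39, 5.37 and 2.33 in fetal against 969.8, 1299.4 and 1002.5 in TAC (difference -8.02, SE 0.28, adjusted p = 1.04e-06). From reference transcripts alone, without the assembled forms, the difference of Myom2 turned to 1.59, so its direction rests on transcripts that Cufflinks assembled. For both the TAC values lay within or close to the range of sham, and fetal values were below every adult library. Akr1cl1, Aqp7, which carries glycerol and water, Acss1, a mitochondrial acetyl-CoA synthetase, Gda and Pla2g2a were lower as well, with differences from -8.18 to -6.14. The reference transcript of Gda held 0% of its locus in every adult library, so its adult values come from assembled forms. Rpl3l, Akr1cl1, Aqp7 and Gda, below 1 in every litter, passed the filter of at least 1 in 3 libraries only through adult libraries. Their direction was fixed by that filter.

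**Figure D2:**
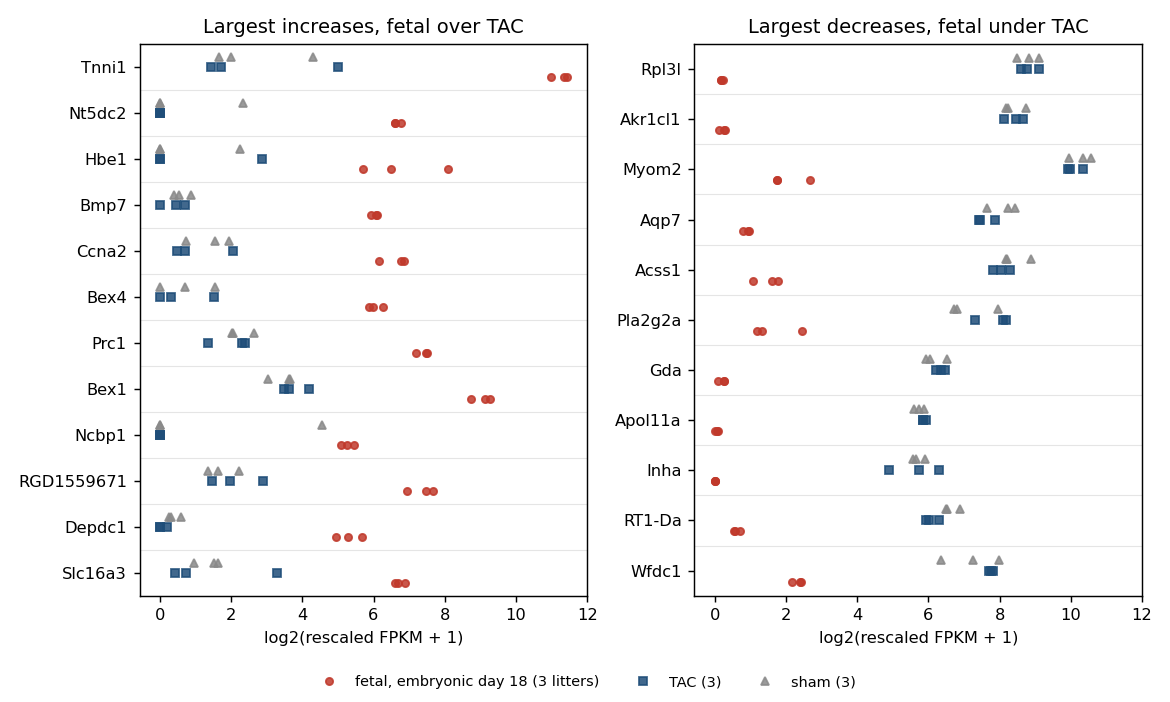
Values of single libraries, as log2(rescaled FPKM + 1), for the loci with a symbol most raised (left, 12 loci) and most lowered (right, 11 of the 12 loci) in fetal ventricle among called loci whose fetal and TAC values do not overlap. Each point is 1 library, and the fetal points stand apart from the TAC points in every row, from Tnni1 (8.54) to Rpl3l (-8.64).

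The classical stress genes behaved differently from Tnni1. Of 17 measured members of the fetal and stress programme, 6 were higher in fetal ventricle, 2 were lower and 9 did not pass, with a list median of 0.82. The shares were 35.3% higher and 11.8% lower, beside 22.7% and 22.8% of all tested loci. Nppa, the atrial natriuretic peptide, read 1896.2, 1346.8 and 884.8 in the litters, 1750, 250.2 and 518 in TAC and 533.4, 416.2 and 150 in sham. TAC replicate 1 lay among the litters and the other TAC libraries lay below them, so the groups overlapped (difference 1.10, SE 0.73, adjusted p = 0.252). Without TAC replicate 1 the difference was 1.86 (adjusted p = 0.039).

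Nppb, the brain natriuretic peptide, read 403.2, 548.9 and 364.1 in fetal and 604.3, 365.1 and 732.6 in TAC (difference -0.33, SE 0.44, adjusted p = 0.577). Acta1, skeletal alpha-actin, read 3055, 10082.4 and 3067.7 in fetal and 2306.7, 1018.2 and 1859.8 in TAC (difference 1.48, SE 0.58, adjusted p = 0.067). Every fetal value of Acta1 exceeded every TAC value, but the spread was wide and the test was not passed. Sham read 310.2, 590.8 and 172.6 for Nppb and 2553.5, 925.2 and 1570.8 for Acta1. For both, TAC and sham values overlapped, and neither gene was called between TAC and sham. Ankrd1, a stretch-responsive protein of the sarcomere and nucleus, was lower in fetal ventricle: 757.2, 916.1 and 712.4 against 2114.7, 1811.4 and 3575.8 (difference -1.60, SE 0.28, adjusted p = 0.00185). Sham values of Ankrd1, from 2066.4 to 2320.8, were in the range of TAC.

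The called members on the fetal side were, beside Tnni1, Cnn1 (4.13), Myl9 (4.09), Uchl1 (3.45), Smtnl2 (2.59) and Tnnt1 (1.63). Myl9, the regulatory light chain of smooth and non-muscle myosin, read 1353.8, 1764 and 1649.5 in fetal against 129.9, 71.8 and 82.4 in TAC (adjusted p = 1.53e-05). Cnn1, the calponin of smooth muscle, read 85, 75.3 and 90.9 against 5.84, 1.43 and 5.71 (adjusted p = 0.00174). For both, TAC and sham values overlapped.

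Genes of the atria and conduction tissue varied within TAC. Myl7, the atrial regulatory light chain, read 486.7, 605.9 and 298.4 in the litters and 1050.7, 144.7 and 103.4 in TAC (difference 0.82, SE 1.40, adjusted p = 0.67). Sln, sarcolipin, read 13.7, 0.24 and 1.07 against 96.8, 24.4 and 22.7 (difference -3.54, SE 1.01, adjusted p = 0.0207), and the call was lost without TAC replicate 1, fetal replicate 2 or fetal replicate 3 (-2.87, -2.82 and -3.19). Sham read 73.8, 79.2 and 1.2 for Myl7 and 11.1, 3.91 and 1.23 for Sln, in each case below every TAC library. Neither gene was called between TAC and sham (TAC minus sham 3.41 for Myl7 and 2.93 for Sln). TAC replicate 1 was the highest TAC library for Nppa, Myl7 and Sln. The 9 measured atrial and conduction markers summed to between 502.1 and 2988.1 in TAC, 1317.5 and 2607.8 in fetal and 211.3 and 703.8 in sham, and the part of atrial tissue in these values was not tested. Of the 9, Gja5 (3.63), a gap junction protein, and Bmp10 (4.22) were higher in fetal, Sln and Stard10 (-1.28) lower, and 5 did not pass. These shares, 22.2% higher and 22.2% lower beside 22.7% and 22.8% of all tested loci, lay near the background. Without fetal replicate 2 or fetal replicate 3 only 2 of the 9 were called. Bmp10 then had at least 1 in only 2 libraries, missed the filter and was not tested. Stard10 turned to 1.20 from reference transcripts only. Bmp10 was at 0 in 2 TAC libraries and at 0.284 in TAC replicate 1, against 35.1, 14.6 and 13.9 in fetal. It was at 0 in every sham library, so it passed the filter only through the litters and its direction was fixed. Its reference transcript held 0% of the locus in every litter, so the fetal values come from assembled forms.

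**Figure D3:**
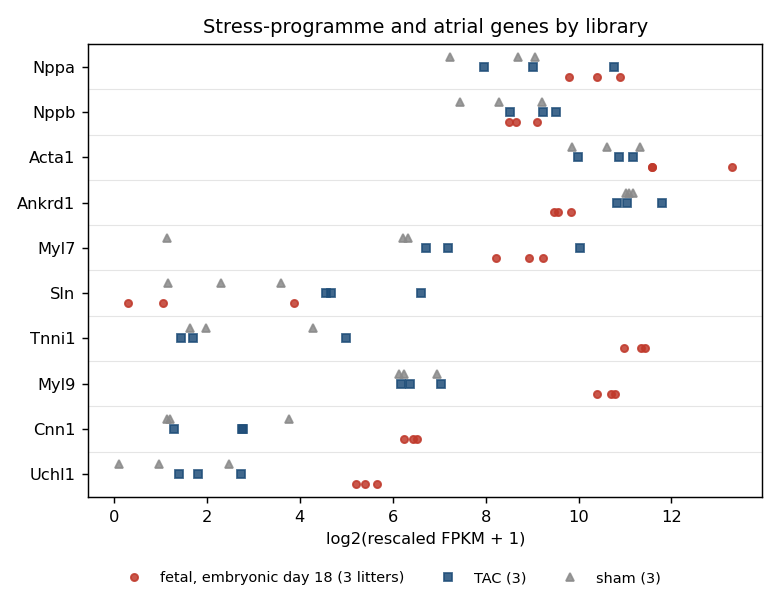
Values of single libraries, as log2(rescaled FPKM + 1), for 10 stress-programme and atrial genes, with 3 points each for fetal, TAC and sham. Nppa and Nppb overlap between fetal and TAC, Ankrd1 lies lower in fetal, and Tnni1, Myl9, Cnn1 and Uchl1 lie higher in fetal than in TAC.

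All 44 measured cell-cycle genes were higher in fetal ventricle, with differences from 0.81 to 5.52 and a median of 3.82, against 22.7% of all tested loci. Of the list, 4 members stayed below 1 in all TAC libraries and reached at least 10 in every litter. Such members passed the filter of at least 1 in 3 libraries through the litters, so their direction was fixed by it. The 4 leave out members at 0 in all TAC libraries or below 10 in a litter, so more members may share this limit. Summed over the list, fetal libraries held between 2107.4 and 2714.2 and TAC libraries between 196.4 and 227.6, beside 180.7 to 230.3 in sham. Ccna2, cyclin A2, read 115.8, 69.8 and 108.4 in the litters and 3.16, 0.621 and 0.398 in TAC (difference 5.52, SE 0.47, adjusted p = 4.18e-05). Prc1, which bundles microtubules of the midzone in cell division, read 177.3, 145.5 and 178.8 against 3.9, 4.27 and 1.57 (5.37, adjusted p = 5.57e-06). Cdc2, now Cdk1, the kinase that drives mitosis, read 157.7, 98.2 and 112.2 against 4.86, 2.29 and 1.54 (5.05, adjusted p = 1.86e-05). These 3 genes were low in sham as well. Plk1, a mitotic kinase, read 54.4, 60.1 and 68.2 against 2.66, 0.477 and 0.32 (5.00, adjusted p = 3.37e-05). From reference transcripts without extended forms Cdc2 turned to -1.87. None of the 44 genes was called between TAC and sham, where 0.0211% of all loci were. In bulk tissue, fewer cells of a type and less RNA per cell cannot be told apart.

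Promoters of 3 of these 4 genes are in the RefSeq table of GRCr8 (250 bases before to 50 after the start of the gene) and are shown because the members moved together. Capitals mark the E2F words TTTGGCGC and TTTCGCGC, the CHR word TTTGAA, an element known from mitotic promoters, and the CCAAT word CCAAT, each searched on both strands.
Prc1 (GRCr8 chr1:143659231-143659530, plus strand): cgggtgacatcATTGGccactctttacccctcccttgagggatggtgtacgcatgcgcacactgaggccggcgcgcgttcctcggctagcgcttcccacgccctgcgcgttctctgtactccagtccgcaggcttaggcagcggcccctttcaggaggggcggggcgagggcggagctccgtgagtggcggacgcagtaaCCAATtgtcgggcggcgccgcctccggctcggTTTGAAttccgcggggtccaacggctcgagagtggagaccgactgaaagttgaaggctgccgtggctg
Cdk1 (GRCr8 chr20:19265043-19265342, plus strand): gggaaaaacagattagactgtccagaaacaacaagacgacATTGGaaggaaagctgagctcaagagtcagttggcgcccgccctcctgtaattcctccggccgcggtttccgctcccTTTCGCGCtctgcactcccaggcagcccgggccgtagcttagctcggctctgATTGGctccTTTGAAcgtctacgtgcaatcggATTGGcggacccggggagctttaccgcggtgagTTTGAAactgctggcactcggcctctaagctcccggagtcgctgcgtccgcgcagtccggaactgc
Plk1 (GRCr8 chr1:186147408-186147707, plus strand): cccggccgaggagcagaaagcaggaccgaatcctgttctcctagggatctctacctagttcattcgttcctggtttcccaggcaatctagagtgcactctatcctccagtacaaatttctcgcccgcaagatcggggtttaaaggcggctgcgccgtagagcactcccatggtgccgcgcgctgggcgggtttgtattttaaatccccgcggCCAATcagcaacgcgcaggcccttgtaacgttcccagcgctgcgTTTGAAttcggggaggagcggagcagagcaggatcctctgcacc
The Cdk1 window held 1 E2F word, 2 CHR words and 3 CCAAT words. Of 8697 symbols of tested loci, 5969 were matched to a promoter, 965 of them by synonym. Among the 34 matched cell-cycle promoters, 18 (52.9%) held the CHR word, 24 (70.6%) the CCAAT word and 8 (23.5%) an E2F word. Over all 27457 promoters of the table the shares were 18.1%, 37.7% and 0.841%, and over the 5969 tested ones 11.8%, 37.8% and 1.46%. A match is a description of the letters only.

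Most measured genes of fatty acid oxidation, the tricarboxylic acid cycle and oxidative phosphorylation were lower in fetal ventricle. Of 19 measured genes of fatty acid oxidation, 18 were lower and none higher (median -2.38, against 22.8% of all loci lower). Ucp3, at 0 in every litter and counted among the lower, passed the filter only through adult libraries, so its direction was fixed. Lpl, the lipase that releases fatty acids to muscle, read 52.9, 56.5 and 58.7 in fetal and 1114, 1496.7 and 1136.6 in TAC (difference -4.44, SE 0.17, adjusted p = 1.41e-06). Acadm, the medium-chain acyl-CoA dehydrogenase, read 101.9, 116.4 and 127.2 against 957.4, 1119.2 and 1070.5 (-3.18, adjusted p = 4.72e-06). The exception was Cpt1a, the carnitine palmitoyltransferase prominent in liver and fetal heart, at 43.2, 28.9 and 33.4 in fetal and 27.3, 34.4 and 35.4 in TAC (0.11, SE 0.18, adjusted p = 0.662). The list summed to between 1796.7 and 2108.5 in fetal, 10301.6 and 12487.6 in TAC and 11169 and 14287.1 in sham.

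Of 10 tricarboxylic acid cycle genes 8 were lower (median -0.99), among them Sucla2 (-1.56), while Idh3a (-0.42) and Suclg2 (-0.23) did not pass. Of 38 genes of oxidative phosphorylation 30 were lower, 1 (Cox6a1, 1.03) was higher and 7 did not pass (median -1.22). The shares lower in these lists were 80% and 78.9%, against 22.8% of all tested loci. Ndufb9, a subunit of complex I, read 460.4, 590.5 and 639.2 against 1759, 1990.1 and 2203.2 (-1.82, adjusted p = 0.000328), but turned to 6.18 from reference transcripts without extended forms. Ndufa1 (adjusted p = 0.0497) lost its call without any 1 of fetal replicates 1 to 3, TAC replicates 2 and 3 or sham replicate 1 (adjusted p from 0.06 to 0.149). Cox7a2 (0.0271) lost it without TAC replicate 1 (0.0775), TAC replicate 2 (0.0679) or fetal replicate 3 (0.0588), and Ndufb2 (0.0158) without TAC replicate 2 (0.0542). Atp5a1, a subunit of the ATP synthase, read 2038.3, 142625.9 and 1941.4 in fetal and 4695.6, 5028 and 5238.4 in TAC. The value of fetal replicate 2 stood far above all others (difference 0.73, adjusted p = 0.718), and without that library the difference was -1.32 (adjusted p = 0.00662). Uqcrh (-0.68, adjusted p = 0.0589) passed with the replicate number as a block (adjusted p = 0.0366).

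Of 15 glycolysis genes 5 were higher, 3 lower and 7 not called (median 0.09), 33.3% and 20% beside 22.7% and 22.8% of all tested loci. The summed list was lower in fetal, at 4381.5 to 5627.7 against 9248.1 to 12080.2 in TAC. Slc2a1, the glucose transporter GLUT1, read 157.4, 133.3 and 155.8 in fetal and 21.2, 18.7 and 16.8 in TAC (2.91, SE 0.15, adjusted p = 4.31e-06). Slc16a3, a lactate transporter, read 101.8, 117 and 96.8 against 8.82, 0.35 and 0.648 (5.24, adjusted p = 0.000355). Pfkp (3.09), Aldoc (3.20) and Pfkl (1.45) were higher too, whereas Pfkm (-1.83) and Pgam2 (-4.74), muscle forms of glycolytic enzymes, and Ldhb (-2.37) were lower. Ldha, at 848.4, 810.8 and 792.7 against 819.3, 983.9 and 819.8, overlapped (-0.09, adjusted p = 0.662).

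All 10 measured genes of the adult contractile list were lower in fetal ventricle (median -4.08), against 22.8% of all tested loci. Rpl3l, below 1 in every litter, passed the filter only through adult libraries. Mb, myoglobin, read 648, 1476.3 and 1205.9 against 20710.2, 20924.4 and 18795.4 (-4.26, adjusted p = 7.63e-05), and Hspb6, a small heat shock protein of muscle, read 38.7, 78.4 and 70.5 against 2484.9, 2342.6 and 1789 (-5.17, adjusted p = 5.04e-06). Actc1, cardiac alpha-actin, read 13994.4, 135207.6 and 18858.3 in fetal and 27095.7, 20921.3 and 22895.3 in TAC (0.49, adjusted p = 0.699), again with fetal replicate 2 apart (without it -0.53, adjusted p = 0.414). Of 23 ion channel genes 4 were higher and 11 lower, 17.4% and 47.8% beside 22.7% and 22.8% of all tested loci. Scn4b, a sodium channel beta subunit, read 1.48, 1.53 and 0.907 against 75.5, 91.5 and 68.6 (-5.11, adjusted p = 2.68e-06), while Gja1, the main ventricular connexin, did not pass (-0.46, adjusted p = 0.0687; 0.0295 without sham replicate 3).

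All 8 tested oncofetal and imprinted genes, of 14 with a locus, were higher (median 3.99), against 22.7% of all tested loci. Igf2bp1, at 0 in every adult library, and Plagl1, below 1 in every adult library, passed the filter of at least 1 in 3 libraries only through the litters. Their direction was fixed by that filter. Igf2, a fetal growth factor, read 1415.4, 754.2 and 826.4 in the litters against 37.3, 24.2 and 20.8 in TAC (5.12, SE 0.42, adjusted p = 3.35e-05), and sham read 30.8, 11.1 and 29.5. Dlk1, a Notch-like membrane protein, read 25.4, 64.7 and 59 against 2.27, 0.929 and 0.693 (4.42, adjusted p = 0.000155). Of 39 growth factors, receptors and binding proteins, 15 were higher and 12 lower (38.5% and 30.8%, against 22.7% and 22.8% of all tested loci), among them Mdk (3.56) and Igf1r (1.70) on one side and Igfbp6 (-3.67) and Fgf12 (-2.90) on the other. Igfbp3 (0.61, adjusted p = 0.151) passed with the replicate block (adjusted p = 0.044). Bmp7 and Bmp10, counted among the higher, passed the filter only through the litters.

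Of 35 developmental transcription factors 9 were higher and 11 lower (median -0.15), 25.7% and 31.4% beside 22.7% and 22.8% of all tested loci, so the list's counts lay near the background. Tead2, an effector of Hippo signalling, read 45.6, 38.9 and 41.6 against 1.46, 0.935 and 3.96 (3.91, adjusted p = 5.59e-05). Thrb, the thyroid hormone receptor beta, read 0.674, 0.567 and 0.488 against 32, 34.9 and 27.4 (-4.36, adjusted p = 1.2e-06), and Rxrg, a retinoid receptor, was lower as well (-3.24), though at 0.99 from reference transcripts only. Thrb, below 1 in every litter, passed the filter only through adult libraries, so its direction was fixed. Sox11, at 0 in every adult library and counted among the higher, passed it only through the litters. Sox17, an endodermal and endothelial factor, read 3.67, 31917.8 and 4.35 in fetal and 7.45, 12.5 and 8.91 in TAC (3.16, adjusted p = 0.415), and without fetal replicate 2 the difference was -1.06 (adjusted p = 0.0128). Of 23 immediate early genes 2 were higher and 6 lower, with Myc (1.63) and Dusp1 (-1.62, but 0.92 from reference transcripts without extended forms) as examples and 15 not called. Beside 22.7% and 22.8% of all tested loci, 8.7% higher lay below the background and 26.1% lower near it, so the counts are not read as a result.

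Of 14 splicing regulators 10 were higher and 1 lower (median 1.20), 71.4% and 7.14% beside 22.7% and 22.8% of all tested loci. Mbnl3, counted among the higher and below 1 in every adult library, passed the filter only through the litters, so its direction was fixed. Ptbp2, a repressor of exon inclusion, read 46.8, 45.4 and 49.8 against 8.79, 9.82 and 14.6 (2.03, adjusted p = 6.81e-05). Rbm20, the titin splicing factor of heart muscle, read 47.5, 65 and 58 against 45, 46.1 and 32.9 (0.45, adjusted p = 0.125).

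Of 24 matrix genes 7 were higher, 8 lower and 9 not called, 29.2% and 33.3% beside 22.7% and 22.8% of all tested loci, again near the background. Postn, periostin, a matricellular protein, read 356.9, 209.4 and 227.5 in fetal, 18.2, 9.24 and 23.2 in TAC and 23.6, 7.32 and 8 in sham (3.94, SE 0.47, adjusted p = 0.000269). Fbn2, a fibrillin of embryonic tissue, read 61.3, 39.3 and 43.5 against 0.923, 0.425 and 0.0448 (5.08, adjusted p = 9.17e-06). The reference transcript of Fbn2 held 0% of the locus in every litter, so its fetal values come from assembled forms. Fbn2, below 1 in every adult library, passed the filter of at least 1 in 3 libraries only through the litters, so its direction was fixed. Dcn, the proteoglycan decorin, went the other way at 87.9, 71.5 and 85.8 against 957.3, 865.1 and 840 (-3.43, adjusted p = 5.21e-06). Bgn and Ctgf overlapped between the groups.

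Markers of other cell types are read against the 22.7% of all tested loci that were higher and the 22.8% that were lower. Of 13 macrophage markers 12 were lower in fetal (summed values 79.7 to 88.1 in fetal and 462.2 to 672 in TAC), and Cx3cr1 (-0.83, adjusted p = 0.123) passed with the replicate block (0.0423). RT1-Da, a class II antigen, read 0.628, 0.493 and 0.454 against 78.4, 64.2 and 60.3. Of 11 lymphocyte markers 6 were lower and none higher, with Ccl5 at 0, 0.825 and 0.0999 against 37.6, 46.3 and 26.7. Fibroblast markers included 7 lower and 3 higher of 11, endothelial markers 5 lower of 8 (3 under equal library totals), smooth muscle markers 2 lower and 1 higher of 7, neural and Schwann cell markers 2 lower of 6 and adipocyte markers 3 lower of 3. The smooth muscle and neural counts rest on few genes and are not read as a result. Of the adipocyte markers, Pparg turned from -1.63 to 0.45 from reference transcripts only, and Cfd from -3.44 to 1.07 without extended forms. Epicardial markers included 4 higher of 9, led by Tbx18 (19.2, 23.8 and 15.9 against 2.74, 2.37 and 2.36). Tcf21 (0.70, adjusted p = 0.102) passed with the replicate block (0.046). Erythroid markers included 8 higher and 1 lower of 12, with sums of 17168.8 to 27297 in fetal and 5054.3 to 10178.5 in TAC. Without fetal replicate 2, without fetal replicate 3 or within replicates 2 and 3 alone, 5 erythroid markers were called. Hbg1, at 0 in every adult library, missed the filter in these settings and was not tested there. The embryonic globin Hbe1 read 274.2, 88.2 and 50.7 in the litters and 6.36, 0 and 0 in TAC. The part of cell composition and blood in the other differences was not tested.

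**Figure D4:**
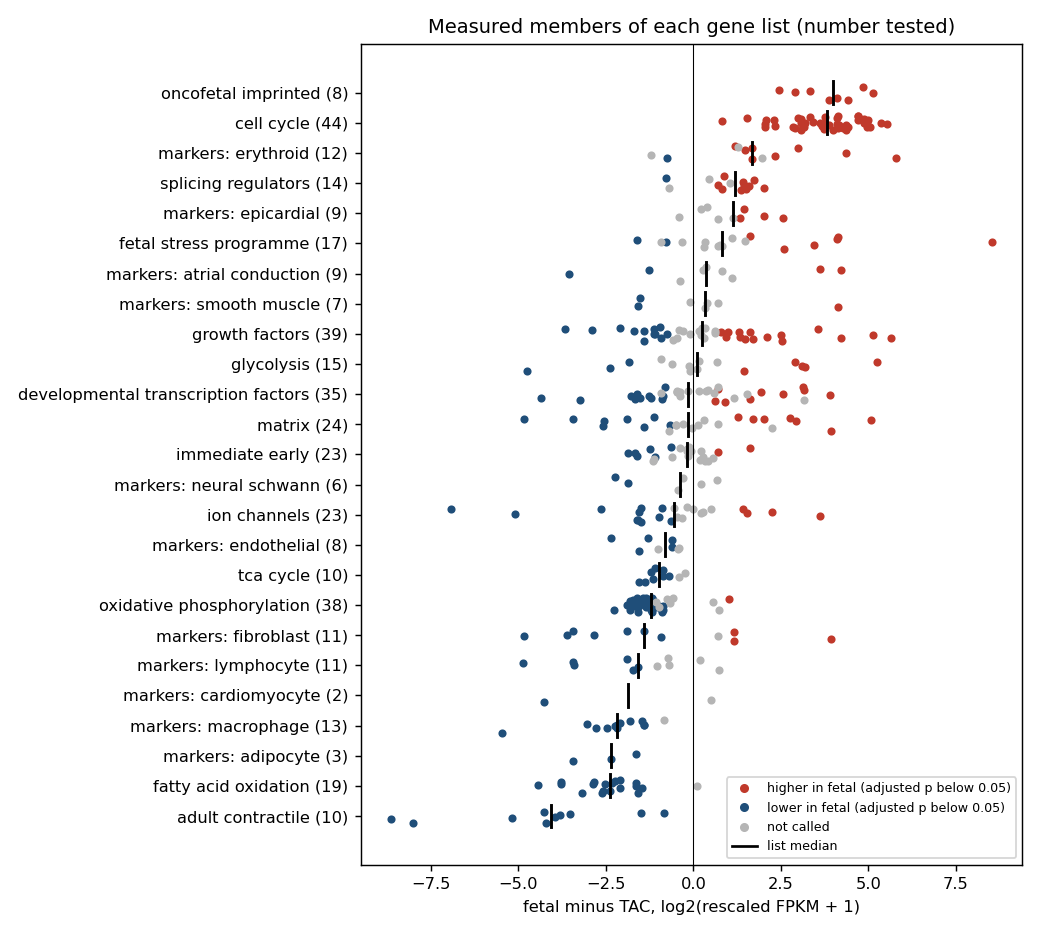
Fetal minus TAC difference, as log2(rescaled FPKM + 1), of each measured member of the 25 gene lists, with the number tested in parentheses. Red and blue points passed the test, grey points did not, and the black bar is the median, which runs from 3.99 for the oncofetal and imprinted genes to -4.08 for the adult contractile genes.

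Loci listed at 0 in every TAC library answer most directly which fetal features were not seen under overload. Among 9583 loci with at least 5 in all 3 litters, 30 (0.313%) were listed at 0 in all 3 TAC libraries, and 22 of them have a symbol. They were chosen on these values, so their counts are a description. From reference transcripts only, 38 loci met the same rule, and only 9 of the 30 were among them. All 3 sham libraries were at 0 for 18 of the 30 and all 3 were below 1 for 25. RGD1559545, in contrast, read 7.5, 16.9 and 15.4 in sham, within its fetal range (5.54, 24.5 and 16.4), so it was not absent from adult ventricle. At the lowest fetal level, the shallowest TAC library would have held between 6 and 738 fragments per locus, with a median of 85.5. Where few fragments were due, a TAC level below the fetal one can also read 0 without the RNA being absent.

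Members with roles in division or growth were Ccne2, cyclin E2, at 28.3, 19 and 29.5 in the litters, Igf2bp1, an oncofetal RNA-binding protein, at 18.5, 15.1 and 15.4, and Cenpk, a centromere protein, at 10.9, 12.4 and 19.1. Sox11, a transcription factor of embryonic tissue, stood at 6.03, 8.81 and 9.21. These 4 were at 0 in all 3 sham libraries too. Sgol1, which protects sister chromatid cohesion (15.7, 10.7 and 16.4), and Cdc25c, a mitotic phosphatase (6.77, 10 and 5.73), had sham values below 1.

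Other members are genes that most cells use, and an exact 0 there can be a failed estimate. Ncbp1, a subunit of the nuclear cap-binding complex, read 42.4, 33.1 and 37.4 in fetal, 0 in all TAC libraries and 22.4, 0 and 0 in sham. Ptpmt1, a mitochondrial phosphatase, read 25.4, 27.4 and 25.4 in fetal and 0 in all adult libraries. Nt5dc2 read 96.9, 108.7 and 95.9, with 0, 0 and 4.08 in sham. Cdca7l read 11.2, 9.7 and 8.69 in fetal but 1.21, 0 and 50.8 in sham. No other feature covering at least 50% of the locus carried a value in TAC for any of the 30.

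**Figure D5:**
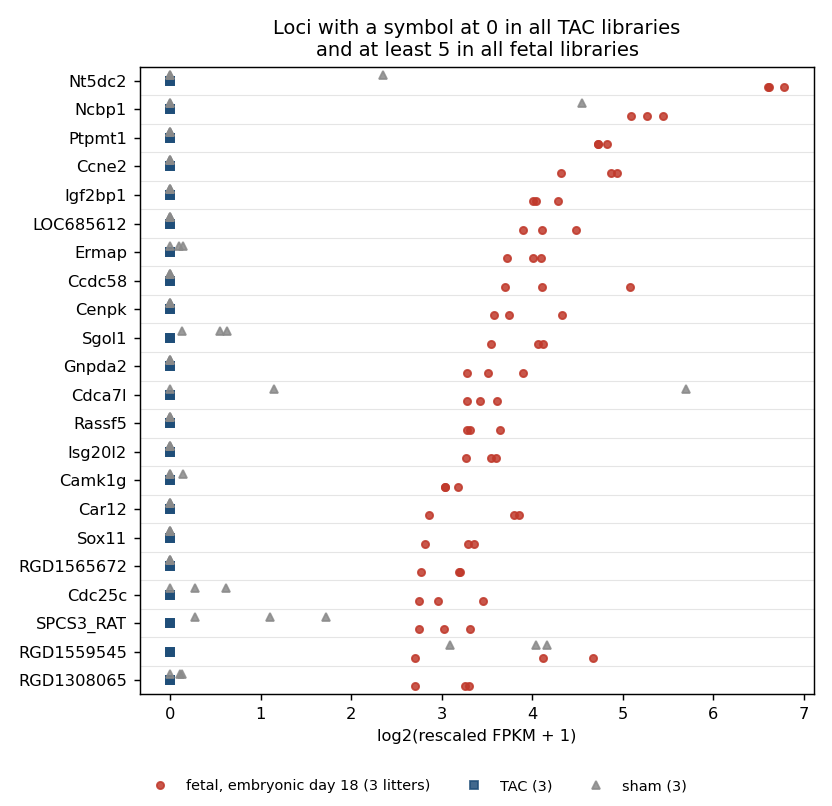
Values of single libraries, as log2(rescaled FPKM + 1), for the 22 loci with a symbol that were listed at 0 in all 3 TAC libraries and at 5 or more in all 3 litters. The TAC points all lie at 0, and most sham points lie at or near 0, with Nt5dc2, Ncbp1, Cdca7l, SPCS3_RAT and RGD1559545 as exceptions in at least 1 library.

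A wider set was measured in TAC but stayed below 1 in all 3 libraries while every litter read at least 10. It held 43 of 7513 loci (0.572%), and in 29 of them all 3 sham libraries were below 1 as well. Beside Bmp7, Fbn2, Bmp10 and Depdc1 it held Plagl1, an imprinted zinc finger gene (44.6, 21.9 and 52.3 against 0.516, 0.167 and 0.303), Ttk, a spindle checkpoint kinase (35.8, 25.6 and 35.1 against 0.222, 0 and 0.154), and Wisp1 (13.9, 10.8 and 12.1 against 0.521, 0.361 and 0.125). As for Fbn2 and Bmp10, the reference transcript of Wisp1 held 0% of its locus in every litter, so its fetal values come from assembled forms. Only 4 of the 43 are in the cell-cycle list, but Mybl2, Espl1, Skp2 and several kinesins, named here after their values were seen, are known for roles in division.

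In the reverse direction, 18 of 9041 loci (0.199%) were listed at 0 in all litters with at least 5 in all TAC libraries. Ucp3, a mitochondrial uncoupling protein, read 15, 12.5 and 10.8 in TAC, Inha, the inhibin alpha subunit, 52.2, 77.5 and 28.8, and Cd37, a leukocyte tetraspanin, 7.61, 7.19 and 8.69. In 5 of the 18, Fgf13 and Hyi among them, another feature over at least 50% of the locus carried a value in fetal libraries (up to 57.4 for Fgf13). Measured but below 1 in all litters and at least 10 in all TAC libraries were 51 of 7101 loci (0.718%), among them Rpl3l, Aqp7, Thrb, Adra1d and 4 class II antigen genes.

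At the level of single reference transcripts, 682 of 14038 were higher and 1220 lower in fetal ventricle (13.5% called, 4.86% higher and 8.69% lower). Of the 1902 called, 1269 belong to loci with a single reference transcript. Between TAC and sham 49 transcripts (0.349%) were called. The fetal calls numbered 1158 without fetal replicate 1, 1099 without fetal replicate 3 and 849 within replicates 2 and 3 alone. Rtn4, a reticulon of the endoplasmic reticulum (rn4 chromosome 14, 110724781 to 110772581), differed in its transcripts while the summed locus overlapped between groups. The locus read 234.9, 197 and 186.3 in fetal and 203.2, 228.9 and 219.4 in TAC (-0.08, adjusted p = 0.709). Transcript ENSRNOT00000042965 was listed at 0 in all litters and read 133.3, 161.2 and 164.2 in TAC (adjusted p = 4.4e-06). Transcript ENSRNOT00000051817, named after its values were seen, read 0 in each of the 6 adult libraries, against 147.7, 73.6 and 79.3 in the litters (adjusted p = 8.16e-05). Ccng1, cyclin G1, and Kcnip2_v2, a potassium channel subunit, each had a transcript at 0 in all litters, at loci that were lower as a whole (-1.90 and -4.43).

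As a share of its locus, 53 of 11679 transcripts were higher (0.454%) and 148 lower (1.27%), 1.72% in all, beside 6 (0.0514%) between TAC and sham. Leaving out single libraries gave between 8 (fetal replicate 3) and 202 calls, with 114 without TAC replicate 1, 32 without TAC replicate 2, 25 without fetal replicate 1 and 35 without fetal replicate 2. In 153 of the 201 the share was 0 in a whole group. With the replicate number as a block 9 were called, and within replicates 2 and 3 alone none was, where 2 libraries per group remain. The share of ENSRNOT00000042965 in Rtn4 was 0% in all litters and 65.6%, 70.4% and 74.8% in TAC (adjusted p = 0.00343). Arhgap5, Creb3l2, Armcx2 and Dhx38 had shares of 0% in fetal and 100% in TAC, and 3 of these 4 loci have 1 reference transcript, so the rest of the locus is an assembled form. In sham the shares of Arhgap5 and Dhx38 were 0% as in the litters, and those of Creb3l2 and Armcx2 were 100% as in TAC. Tmem223 (adjusted p = 0.00779) lost its call with the block (adjusted p = 0.0583).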

How the data were processed

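Sequencing libraries used Illumina's TruSeq kit on total RNA, per the labels' protocols. Reads were processed with TopHat 1.3.1, Cufflinks 1.0.3 and Cuffdiff on build rn4, per the submitters' processing notes. The deposited FPKM values per gene and isoform carry a further constant in each library. Each library was assembled separately, so isoforms were placed in genes by file order, span and summed value, and 39492 reference transcripts were joined into 29324 loci if placed in the same gene in 5 or more libraries. Isoforms were summed per locus, rescaled by median of ratios over 13154 loci (mean total 1000000) and analysed as log2(value + 1). Loci of at least 200 nt with at least 1 in 3 libraries were tested with limma 3.58.1 (R 4.3.3; trend, 6 residual degrees of freedom) over all 9 libraries, after a check on simulated data. Shares were tested as log2((transcript + 1)/(rest + 1)), at loci averaging 3 or more, with mean shares from 5% to 95%. Same-numbered fetal and TAC libraries deviated together (r = 0.47, 0.23 and 0.18), so replicate numbers, from the titles, were used as a block. Fetal 2 with TAC 3 (0.23) and fetal 3 with TAC 2 (0.17) correlated about as much, so the values set replicate 1 apart and do not tell numbers 2 and 3 apart. Symbols come from the files: 8801 of 14194 tested loci have one, and Myh6, Myh7 and Ttn are among genes not analysed here by name.

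Named loci are the 12 most raised and 12 most lowered non-overlapping ones, up to 4 called and 2 uncalled members of each of 25 lists, 12 chosen genes, up to 15 loci at 0 in each group, and 6 transcripts and 6 shares. Adra1d, Cdc25c, Cox6a1, Espl1, Fgf12, Igf1r, Ldhb, Mdk, Mybl2, Pfkl, Pfkm, RGD1559545, Skp2, Smtnl2, SPCS3_RAT, Tnnt1, Ttk and Wisp1 were named after their values were seen. Some loci that the rule selects are not reported here. The members and lists were chosen with earlier results of these data known.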

Additional observations from a re-analysis of the deposited data

How the results depend on the processing

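Counts of called loci kept within 1.5 times of 6454 under another pseudocount, filter, scaling or trend, with the replicate block, with replicates 2 and 3 alone and when any library was left out (4966 to 6368). From reference transcripts and their extended forms only, 2109 loci were called, 49 shares, 150 list members and 74 named genes, and from reference transcripts without extended forms, an alternative chosen after seeing the data, 228 loci, 235 transcripts, 0 shares, 20 list members and 12 named genes. Transcripts numbered 849 with replicates 2 and 3 alone. Leaving out a library gave 1099 to 1850 transcripts and 8 to 202 shares. Shares numbered 650 with no filter, 67 with a filter of 5, 43 with the 6 compared libraries alone, 9 with the replicate block, 0 with replicates 2 and 3 alone and 126 at loci with 2 or more reference transcripts (added after seeing the data). The transcript values hold no assembled forms, so the alternative of reference transcripts only was not run for them.

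Loci listed at 0 in TAC numbered 5 when the litters had to reach 20 and 121 when TAC had only to stay below 1. From reference transcripts only they numbered 38, and 9 of the 30 were shared. Those listed at 0 in fetal numbered 32 at a minimum of 2, 5 at 20 and 108 below 1. They numbered 46 from reference transcripts only, where 9 of the 18 were shared, and 21 to 28 when a library was left out. Placing separately assembled genes by span, added after seeing the data, gave 6463 called loci and 29 at 0 in TAC. Directions turned without fetal replicate 2 for Atp5a1 (-1.32, and up to 1.78 without another library) and Sox17 (-1.06, and up to 5.31). From reference transcripts only they turned for Cd4 (1.0), Myom2 (1.59), Pparg (0.45), Rxrg (0.99) and Stard10 (1.20). Without extended forms they turned for Aldh1a2 (-1.37), Cdc2 (-1.87), Cfd (1.07), Dusp1 (0.92), Myom2 (1.59), Ndufb9 (6.18), Pparg (0.45) and Stard10 (0.99). The cause was not tested. Genes that missed the filter of a setting have no direction there. Of 155 named genes, 141 were tested from reference transcripts only and 77 without extended forms. With the replicate block 6751 loci were called, 6202 of them among the 6454, and 281 list members against 273. Among the named genes and shares its calls differed only for the 5 given in the text. The depth of TAC libraries limits what a value of 0 there can show.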
